A study of Mus musculus with 8 samples.

Results

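Mouse embryonic fibroblasts that lack Taf4 and carry a full-length human TAF4 transgene were compared with the same kind of cells without a transgene. The knockout cells were Taf4 -/-, and the rescued cells were Taf4 -/- Tg: hTAF4 wt, a stable line represented by clones 1 and 2. Each group had 2 libraries, so the comparison used 4 of the 8 libraries of the study. Libraries of the other groups gave context: Taf4 loxp/- control cells, which retain 1 floxed allele (other labels of the same cells read wild type), and Taf4 -/- cells with a human TAF4 from which the TAFH domain was deleted, also as clones 1 and 2. All cells were of strain C57BL/6, and their mRNA was sequenced with an Illumina kit. The labels do not say how Taf4 was deleted, which promoter drove the transgene, whether the 2 clones arose independently, or whether numbered replicates came from separate cultures. Both rescue libraries are clonal and the knockout is not labelled as a clone, so what the transgene did and what a clone brought with it cannot be told apart.

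TAF4 is a subunit of TFIID, the complex that recognises core promoters and helps to assemble RNA polymerase II there. Besides holding parts of TFIID together, TAF4 contacts sequence-specific activators, and its TAFH domain binds short hydrophobic motifs, among them the activation domain of the E proteins Tcf3, Tcf4 and Tcf12. E proteins bind the E-box CANNTG as dimers, Id proteins prevent that binding, and corepressors of the ETO family carry a domain related to TAFH. Fibroblasts build the extracellular matrix and signal to their neighbours through secreted growth factors, and fibroblasts without Taf4 are known to stay viable because Taf4b, a related subunit, can take its place.

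The 4 promoters below belong to genes among the 5 with the highest rescue-over-knockout differences, and they are shown so that the E-box content of such promoters can be read directly. Each runs 5′ to 3′ over the 250 bases upstream of the annotated start on the plus strand (RefSeq, GRCm38.p6), with E-boxes in capitals. They lie at chrX:140907358-140907607 (Vsig1), chr1:134037004-134037253 (Fmod), chr4:126286544-126286793 (Col8a2) and chr6:49036268-49036517 (Gpnmb).
Vsig1: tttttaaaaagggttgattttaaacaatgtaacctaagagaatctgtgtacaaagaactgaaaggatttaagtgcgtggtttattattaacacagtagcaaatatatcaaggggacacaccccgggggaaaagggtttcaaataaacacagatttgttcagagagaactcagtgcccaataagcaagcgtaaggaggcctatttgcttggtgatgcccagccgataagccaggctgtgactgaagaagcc
Fmod: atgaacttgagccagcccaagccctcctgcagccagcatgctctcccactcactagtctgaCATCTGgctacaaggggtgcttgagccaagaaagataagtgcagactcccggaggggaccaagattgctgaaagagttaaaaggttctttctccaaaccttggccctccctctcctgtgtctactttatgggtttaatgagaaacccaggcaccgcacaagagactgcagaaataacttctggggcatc
Col8a2: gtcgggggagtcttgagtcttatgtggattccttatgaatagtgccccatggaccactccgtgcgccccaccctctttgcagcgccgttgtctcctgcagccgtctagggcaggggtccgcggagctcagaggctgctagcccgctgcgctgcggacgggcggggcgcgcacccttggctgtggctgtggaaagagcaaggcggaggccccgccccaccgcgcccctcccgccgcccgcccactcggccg
Gpnmb: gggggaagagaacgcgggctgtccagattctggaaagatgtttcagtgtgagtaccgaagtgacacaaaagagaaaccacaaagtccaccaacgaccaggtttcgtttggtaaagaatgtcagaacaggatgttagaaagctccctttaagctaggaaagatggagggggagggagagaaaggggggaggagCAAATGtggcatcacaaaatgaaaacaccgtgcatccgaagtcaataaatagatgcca
The Fmod and Gpnmb windows each held 1 E-box, and those of Vsig1 and Col8a2 held 0. An E-box occurred in 54.4% of the 6831 tested genes with a single promoter entry, in 66.4% of the 149 such genes that were at least 2-fold higher in both clones, and in 62.1% of the 58 that were at least 2-fold lower. The subtype CAGCTG occurred in 11% of all these promoters, 16.1% of the higher group and 8.62% of the lower group. The subtype CACCTG, read on either strand, occurred in 13.6%, 13.4% and 29.3%. Both subtypes are also counted as CANNTG. These shares describe letters in the window and were not tested.

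Values are FPKM, fragment counts scaled to transcript length and library size, as deposited and summed over the transcripts of a gene. The step between low FPKM values implied about 14800000 counted fragments in each knockout library, 17100000 and 16900000 in the rescue clones, and from 14300000 to 17300000 in the other 4. The fragments of the knockout libraries differed by less than sampling noise (chi-square per gene 0.608 ± 0.0306 SE over 865 low genes, against 1.64 ± 0.064 SE over 1009 genes between the rescue clones), as did those of the control libraries (0.776 ± 0.0347 SE over 1003 genes). Each of those pairs was therefore averaged and counted as 1 sample, and the spread in the test came from the rescue clones. The full-length clones differed by an SD of 0.203 on the log2(FPKM + 1) scale, with 39 genes 2-fold apart, and the TAFH-deleted clones by an SD of 0.575, with 923 genes 2-fold apart.

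Mouse Taf4 (listed as Taf4a) was at 11.1 and 11.5 FPKM in the control libraries, 12.5 and 12.4 in the knockout, and 14.5 and 15 in the rescue clones. The labels do not name the deleted exons, and fragments of the human sequence could have been counted for the mouse gene, which is why this value is no check of the genotype. Taf4b was at 2.1 and 1.95 FPKM in the knockout and 1.82 and 2.07 in the clones, which overlapped. All 4 libraries expressed fibroblast genes: Col1a1 was at 131 FPKM in the knockout libraries and at 116 and 118 in the clones, Vim (vimentin) at 140 and 140 and at 121 and 122. Thy1, a common fibroblast surface marker, was between 0 and 0.077 FPKM in all 8 libraries. A low listed value need not mean little transcript in this table, since Gapdh, used by every cell, was listed between 0.0682 and 0.599 FPKM.

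Of 12025 genes tested, 285 (2.37%) were at least 2-fold higher than the knockout mean in both full-length clones and 98 (0.815%) were at least 2-fold lower, on the log2(FPKM + 1) scale. The higher group had a median log2 difference of 1.52, and 47 of its genes were 4-fold or more higher in both clones. The lower group had a median of -1.45, and 11 of its genes were at least 4-fold lower. In the knockout mean 116 of the 285 higher genes were under 1 FPKM, and in the clone mean 45 of the 98 lower genes were. Both clones lay above both knockout libraries for 4379 genes (36.4%) and below both for 5440 (45.2%), and the median difference of all genes was -0.04. The counts of each gene list below are read against these shares, and its 2-fold counts against 2.37% and 0.815%.

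No gene passed limma at an adjusted p of 0.05 (0%; smallest adjusted p = 0.171), although 1602 genes had an unadjusted p under 0.05. The genes below are therefore given as higher or lower by their values. The count of 0 depends on libraries outside the comparison: fitted on the knockout and full-length groups alone, limma called 1338 genes higher and 1831 lower, with 3 samples and the spread of the 2 full-length clones alone (1 residual degree of freedom). The authors' deposited table calls 3639 of 14106 tested transcripts in this comparison, 1983 of them with a higher rescue mean and 1656 with a lower one.

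**Figure D1:**
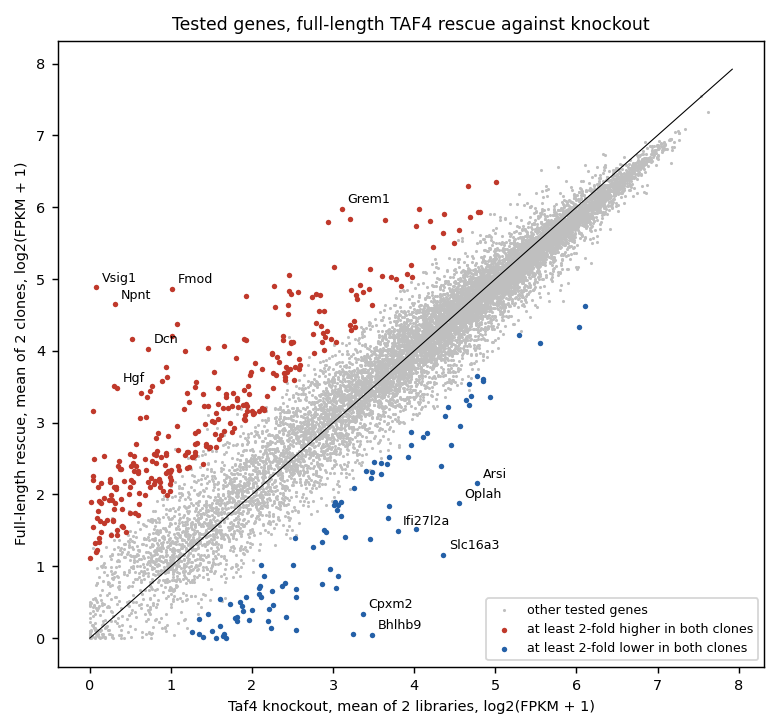
Mean log2(FPKM + 1) of the 2 full-length rescue clones (y axis) against the mean of the 2 knockout libraries (x axis) for the 12025 tested genes, with the line of equal values. Red points are the 285 genes at least 2-fold higher in both clones and blue points the 98 at least 2-fold lower; Vsig1, Npnt, Fmod and Grem1 lie far above the line and Bhlhb9, Cpxm2, Slc16a3 and Oplah far below it, and the most abundant genes lie slightly below it.

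The bulk of abundant genes sat slightly below equality. Genes were grouped by a single value each, the implied fragments per possible read start on both strands, called here the share of read starts in use. It is the FPKM rescaled by library depth, and start positions were not observed. Its highest value over all tested genes was 148%, so it is not a true share. The median difference was 0.12 in the 2735 genes under 5% and -0.02 in the 2854 genes from 10 to 20%. In the 860 genes from 50 to 100% it was -0.17, with 0 genes at least 2-fold higher and 0 lower. Small differences of abundant genes are read against these medians. The shares above and below the knockout changed too: 48.2% and 28.5% of genes under 5%, but 10.1% and 84.3% from 50 to 100%. Shares of a gene list therefore depend in part on the level of its members. Of the genes at least 2-fold apart, 276 of 285 higher and 97 of 98 lower were under 50% in each of the 4 libraries compared. Most of the 12025 tested genes were also under 50%, so these counts alone do not set the 2-fold groups apart.

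The highest difference among the named genes was that of Vsig1. This immunoglobulin-domain protein of cell junctions (chromosome X, 137442147 to 137474011, mm9 locus as deposited) was at 0.054 and 0.0593 FPKM in the knockout libraries and 28.5 and 28.8 in the clones. Its log2 difference was 4.81 ± 0.20 (SE), with a limma adjusted p of 0.171. Vsig1 was at 14.9 and 14.7 FPKM in the control cells, so the clones lay above the control too. Npnt, nephronectin, a basement-membrane ligand of the integrin formed with Itga8, was at 0.214 and 0.273 FPKM in the knockout and 25.3 and 23 in the clones, a log2 difference of 4.34 ± 0.49. Itga8 itself was at 0.218 and 0.278 FPKM in the knockout and 3.92 and 2.69 in the clones. For each of these genes the clones stood well apart from the knockout pair, as the rule that named them required. Gpnmb, a transmembrane glycoprotein, was at 1.07 and 1.15 FPKM in the knockout and 21.2 and 18.3 in the clones. Il20ra, a receptor chain for cytokines of the interleukin-20 group, was at 1 and 1.04 FPKM and at 16.4 and 18.6. Capn6, a calpain family member, was at 0.242 and 0.222 FPKM in the knockout and 9.11 and 11.7 in the clones, and Samd5 at 0.855 and 0.973 and at 11.3 and 14.1. Erg, an ETS transcription factor typical of endothelium and cartilage, was at 0.605 and 0.504 FPKM in the knockout and 8.71 and 10.7 in the clones. Groups that do not overlap were a condition for naming the highest genes, so their separation is no separate result. Each gene of this paragraph was also higher in the control libraries than in the knockout.

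Among the highest genes that encode secreted signals, Hgf, the ligand of the Met receptor, was at 0.265 FPKM in both knockout libraries and at 11.9 and 8.46 in the clones (log2 difference 3.13 ± 0.28, limma adjusted p = 0.201). Fgf5, a fibroblast growth factor, was listed at 0 and 0.0588 FPKM in the knockout and at 8.06 and 7.83 in the clones (3.12 ± 0.19, limma adjusted p = 0.175). Grem1, which binds and blocks BMP ligands, was at 7.15 and 8.05 FPKM and at 61.4 and 62.7. The clones agreed closely for Fgf5 and Grem1 and less so for Hgf.

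The lowest genes were mixed in function. Bhlhb9, a chromosome X gene of the armadillo-repeat family despite its name, was at 10.5 and 9.85 FPKM in the knockout and 0.0224 and 0.0453 in the clones, a log2 difference of -3.43 ± 0.20 (limma adjusted p = 0.175). It was at 25 and 26.1 FPKM in the control cells and at 18.5 and 17.8 after rescue without TAFH, so the full-length clones stood alone near 0. Pir, pirin, an iron-binding nuclear protein also on chromosome X, was at 8.51 and 8.41 FPKM in the knockout and listed at 0 and 0.0847 in the clones, with 10 and 10.1 in the control. Cd302, a C-type lectin receptor, was at 15.7 and 14.9 FPKM and at 1.89 and 1.85, with 19.9 and 18.7 in the control. Sirpa, the receptor for CD47, was at 11.8 FPKM in both knockout libraries and at 2.82 and 1.55 in the clones, with 20.4 and 20.3 in the control. For these 4 genes the clones were far from the control as well as from the knockout.

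Another set was highest in the knockout among knockout, control and full-length cells. Slc16a3, the lactate exporter MCT4, was at 19.4 and 19.6 FPKM in the knockout, 1.65 and 0.831 in the clones, and 2.15 and 2.25 in the control. Cpxm2, a carboxypeptidase-like secreted protein, was at 9.18 and 9.41 FPKM, then 0.443 and 0.0895, with 0.14 in both control libraries. Serpine2, an inhibitor of serine proteases, was at 5 and 4.67 FPKM in the knockout, 0.158 and 0 in the clones, and 0.0939 and 0.0937 in the control. These 3 genes were near their control level in the clones. Slc43a3, a nucleobase transporter, was at 7.41 and 6.99 FPKM in the knockout and 0.88 and 0.37 in the clones, with 0.58 and 0.338 in the control. Oplah, 5-oxoprolinase of the glutathione cycle, was at 22.6 and 22.4 FPKM in the knockout and 2.5 and 2.84 in the clones, below the control at 6.52 and 6.47. Ifi27l2a, an interferon-induced gene, was at 12 and 13.8 FPKM in the knockout and 1.81 and 1.83 in the clones, with 0.895 and 1.56 in the control. Arsi was at 26.7 and 26.1 FPKM in the knockout and 4.21 and 2.73 in the clones, well below the control at 14.3 and 13.8. Rtn4r was at 6.27 and 6.23 FPKM in the knockout, 0.912 and 0.46 in the clones, and 1.6 and 1.87 in the control. Gpm6b was at 10.1 and 10 FPKM in the knockout, near the control at 8.64 and 8.32, and at 1.68 and 1.52 in the clones. Cxx1c and Msln complete the 14 lowest and were highest in the control. Cxx1c was at 10.1 and 11 FPKM in the control, 6.86 and 7.76 in the knockout and 1.25 and 0.395 in the clones, and Msln (mesothelin) at 23.1 and 22.1, 6.68 and 6.89, and 0.552 and 1.36.

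**Figure D2:**
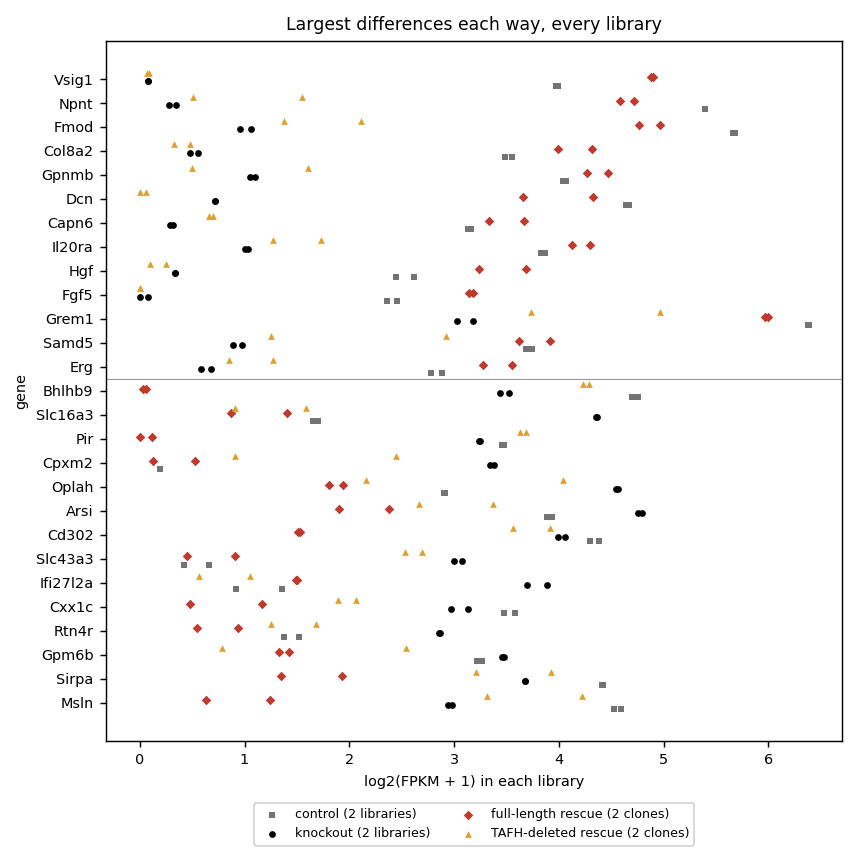
log2(FPKM + 1) in every library (x axis) for 13 of the 14 highest differences above the line and the 14 lowest below it (y axis): squares are the 2 control libraries, circles the 2 knockout libraries, diamonds the 2 full-length rescue clones and triangles the 2 TAFH-deleted clones. For every gene shown the diamonds lie apart from the circles, as the choice of genes required. For Bhlhb9 and Pir the diamonds also lie far below the squares and triangles.

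Matrix genes were among the most often higher. Of 12 tested small leucine-rich proteoglycans, which bind collagen fibrils and growth factors, 11 were above the knockout in both clones and 1 below, and 7 were at least 2-fold higher, against 36.4% above and 2.37% 2-fold higher over all tested genes. Their median difference was 1.25, with 1.50 in clone 1 and 1.18 in clone 2. Fmod (fibromodulin) was at 0.941 and 1.09 FPKM in the knockout and 30.2 and 26.2 in the clones (log2 difference 3.85 ± 0.37, limma adjusted p = 0.201). Dcn (decorin) was at 0.642 FPKM in both knockout libraries and at 19.1 and 11.6 in the clones. Omd (osteomodulin) was at 2.1 and 1.66 FPKM and at 10.9 and 13.1. Aspn (asporin) was at 24.7 and 24 FPKM and at 77.5 and 78.4, next to its control level of 77.1 and 78.3. The deposited table gives Omd, Aspn and the list members Ecm2 and Ogn the same locus. Fmod, Optc and Prelp also lie close together on chromosome 1, and Dcn and Lum on chromosome 10. The members are thus not spread independently over the genome. Podnl1 was at 6.62 FPKM in both knockout libraries and at 19.4 and 17.4, and Ecm2 at 1.69 and 2.01 and at 7.58 and 6.71. Lum (lumican) stayed low, at 0.217 and 0.18 FPKM in the knockout and 2.82 and 0.727 in the clones. The exception was Bgn (biglycan), on chromosome X, at 135 and 134 FPKM in the knockout and 116 and 118 in the clones. Its FPKM corresponded to a computed share of read starts near 100%.

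Among 24 collagen chains 16 (66.7%) were above the knockout in both clones and 4 (16.7%) below, against 36.4% and 45.2% of all tested genes. At least 2-fold higher were 6 of the chains, and the list median was 0.47. Col8a2, a network-forming chain, was at 0.474 and 0.393 FPKM in the knockout and 18.9 and 14.9 in the clones (log2 difference 3.63 ± 0.25, limma adjusted p = 0.175). Its partner chain Col8a1 was at 11.8 and 12.4 FPKM and at 33.7 and 29.4. Col10a1, of hypertrophic cartilage, was at 0.0923 and 0.162 FPKM and at 6.07 and 3.52. Col6a3, a chain of microfibrillar collagen VI, was at 7.13 and 6.96 FPKM and at 40.2 and 29.9, while its partners Col6a1 and Col6a2 differed by 0.02 and 0.49. Col27a1 was at 3.04 and 2.75 FPKM and at 9.11 and 9.91. The main fibrillar chains were not among the higher genes: Col1a1 and Col1a2 differed by -0.16 and -0.15 and Col3a1 by -0.02. All lay in the range of 50 to 100% of read starts in use, where the median was -0.17. In that range 0 of 860 genes were at least 2-fold higher and 0 lower. Whether the deposited values are compressed there was not tested.

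In the basement membrane list 12 of 15 members (80%) were above the knockout in both clones, against 36.4% of all tested genes. At least 2-fold higher were 3 of them, and the list median was 0.40. Besides Npnt, Lama4, the laminin alpha-4 chain, was at 5.79 and 5.59 FPKM in the knockout and 24.5 and 27.1 in the clones, and Smoc2, a calcium-binding matricellular protein, at 19.6 in both knockout libraries and at 59.1 and 58.8. Of 21 elastic fibre genes 11 were above and 9 below (median 0.05), but the microfibril proteins Mfap5, Mfap4 and Mfap2 were at least 2-fold higher. Mfap5 was at 3.36 and 4.26 FPKM in the knockout and 29.9 and 27.8 in the clones, and Mfap4 at 4.54 and 3.87 and at 22.9 and 12.2. The cartilage and bone list had 10 of 14 members above, 2 below, 3 at least 2-fold higher, and a median of 0.94. In that list Col2a1, the main cartilage collagen, was at 2.69 and 2.33 FPKM in the knockout and 9.26 and 9.04 in the clones, far under the control at 48.2 and 48.9. Among the transcription factors of the list, Sox6 was at 2.67 and 2.74 FPKM in the knockout and 6.65 and 5.88 in the clones, Sox9 was at 11.5 and 11 FPKM in the knockout and 7.82 and 11.5 in the clones, and Runx2 at 20.7 and 20.6 and at 20 and 19.4.

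Cells attach to this matrix through integrins and remodel it with proteases. Of 13 integrin chains 5 (38.5%) were above and 5 (38.5%) below, near the 36.4% and 45.2% of all tested genes. The list median was 0.01. Integrin chains at least 2-fold higher were Itga8, Itga11 and Itga1, and the chain at least 2-fold lower was Itga6. The collagen-binding chains Itga11 and Itga1 were at 15.4 and 15 FPKM and 5.98 and 6.51 FPKM in the knockout, and at 52.1 and 53.1 and 16.4 and 16.6 in the clones. Itga6, a laminin-binding chain, was at 6.51 and 6.58 FPKM in the knockout and 1.99 and 1.6 in the clones. Of 31 proteases and inhibitors 17 were above and 11 below (median 0.14). Ctsk, cathepsin K, a collagen-degrading protease, was at 6.08 and 6.24 FPKM in the knockout and 26.4 and 26.6 in the clones.

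Growth factor ligands and their receptors were more often above than below. Of 28 PDGF, HGF, FGF and EGF genes 17 (60.7%) were above the knockout in both clones and 6 (21.4%) below. Over all tested genes these shares were 36.4% and 45.2%. At least 2-fold higher were 4 members and at least 2-fold lower 1 (median 0.31). Fgf10, a ligand made by mesenchyme for epithelium, was at 8.52 and 9.17 FPKM in the knockout and 24.4 and 26.2 in the clones (log2 difference 1.42 ± 0.14, limma adjusted p = 0.201). Pdgfra, the PDGF alpha receptor, was at 17.4 and 17.3 FPKM and at 52.9 and 56.7, with 51.3 and 52.2 in the control (log2 difference 1.60 ± 0.19). The ligand Pdgfb went the other way, at 24.2 and 25.6 FPKM in the knockout and 9.9 and 8.86 in the clones (-1.32 ± 0.18, limma adjusted p = 0.214). Its main receptor Pdgfrb differed by 0.29. Met, the Hgf receptor, was at 6.54 and 6.44 FPKM in the knockout and 9.88 and 9.31 in the clones. Of 14 IGF genes 10 were above and 3 below (median 0.26). Igf1 was at 2.03 and 2.02 FPKM and at 6.29 and 5.35, and Igfbp4, an IGF-binding protein, at 53.9 in both knockout libraries and at 95.5 and 90.9.

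Of 31 TGF-beta and BMP genes 19 (61.3%) were above and 4 (12.9%) below, against 36.4% and 45.2% of all tested genes. At least 2-fold higher were 3, and the list median was 0.28. Loss of Taf4 in fibroblasts is known for altered TGF-beta signalling and autocrine growth. The ligand genes Tgfb1, Tgfb2 and Tgfb3 differed by 0.43, 0.85 and -0.00. Ctgf, a widely used TGF-beta target, was at 106 and 107 FPKM in the knockout and 108 and 98.8 in the clones, which overlapped. Ctgf lay at 50 to 100% of read starts in use, where 0 of 860 genes were at least 2-fold higher and 0 lower. Gdf6, a BMP-family ligand, was at 0.0812 FPKM in both knockout libraries and at 2.97 and 2.52 in the clones. Bambi, a decoy receptor, was at 0.279 and 0.251 FPKM and at 2.11 and 1.59. With Grem1, the 3 genes at least 2-fold higher thus included a ligand and a pair of inhibitors.

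Secreted modulators led the Wnt genes. Of 28 ligands, receptors and modulators 15 (53.6%) were above and 8 (28.6%) below, against 36.4% and 45.2% of all tested genes. Among the 16 members with under 20% of read starts in use, 6 were above and 6 below, with a median of 0.03. All 7363 such genes had 3275 above, 2578 below and a median of 0.04, so these 16 members did not stand out. In the full list of 28, some members differed more. At least 2-fold higher were 3 and at least 2-fold lower 1 (median 0.18). Sfrp1, a secreted Wnt antagonist, was at 15.6 and 15.9 FPKM in the knockout and 66 and 58.4 in the clones. The R-spondins Rspo3 and Rspo2, which strengthen Wnt signals, were at 19.2 and 19.7 FPKM and 17.5 and 18 FPKM in the knockout, and at 54.8 and 42.5 and 43.5 and 42.1 in the clones. The lower gene was Porcn, the acyltransferase that Wnt ligands need for secretion, at 17.3 and 16.3 FPKM and at 6.28 and 6.24; it lies on chromosome X. Of 14 Wnt response genes 9 were above and 4 below (median 0.37). Lef1, a transcription factor of the pathway and a target, was at 0.539 and 0.42 FPKM in the knockout and 4.94 and 6.04 in the clones (log2 difference 2.13 ± 0.43, limma adjusted p = 0.262). The feedback gene Axin2 was at 0.999 and 0.983 FPKM and at 2.11 and 2.74. Apcdd1 was the lowest of the list, with a difference of -0.94.

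Axon guidance genes, whose products also steer mesenchymal cells, had 20 of 38 members (52.6%) above and 11 (28.9%) below. Over all tested genes 36.4% were above and 45.2% below. At least 2-fold higher were 5 axon guidance genes (list median 0.25). Slit3, a secreted ligand of Robo receptors, was at 0.0141 and 0.0423 FPKM in the knockout, 3.97 and 3.55 in the clones, and 12 and 11.8 in the control. The semaphorins Sema3d and Sema5a were at 1.49 and 1.43 FPKM and 2.48 and 2.54 FPKM in the knockout, and at 6.59 and 5.9 and 9.06 and 8.82 in the clones. Hedgehog genes had 7 of 9 members above (median 0.20), among them the target Gli1 at 0.254 and 0.527 FPKM and at 1.52 and 1.88. Retinoic acid genes had 9 of 11 above (median 0.19), and no gene of these last lists was 2-fold higher in both clones. Of 12 Notch genes 6 were above and 5 below; the receptor gene Notch3 was at 7.74 and 8.02 FPKM in the knockout and 2.23 and 1.08 in the clones.

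**Figure D3:**
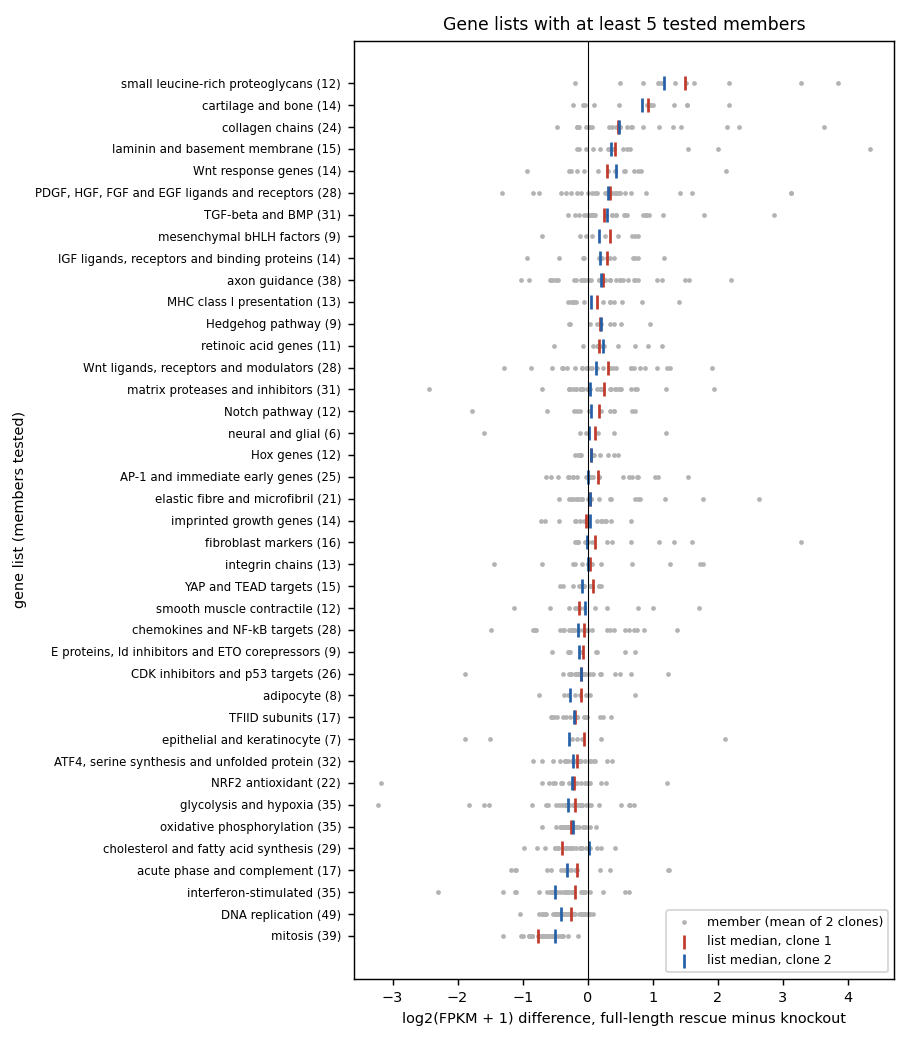
Difference in log2(FPKM + 1), full-length rescue minus knockout (x axis), for each gene list with at least 5 tested members (y axis, number of members in brackets); grey points are members as means of the 2 clones, and ticks are the list medians of clone 1 (red) and clone 2 (blue). Small leucine-rich proteoglycans are at the top with a median of 1.25 over both clones and mitosis at the bottom with -0.63; for cholesterol synthesis the clones lie on opposite sides of 0.

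TFIID subunits and E proteins, the partners of TAF4, differed little. Of 17 TFIID subunit genes 3 (17.6%) were above and 11 (64.7%) below the knockout, against 36.4% and 45.2% of all tested genes. The list median was -0.16, with no member 2-fold apart. The largest was Taf1, the scaffold subunit, at 13.9 and 14.1 FPKM in the knockout and 9.01 and 9.21 in the clones (-0.57 ± 0.18, limma adjusted p = 0.344). Taf1 and the next, Taf9b, both lie on chromosome X. The E protein genes Tcf3, Tcf4 and Tcf12 differed by 0.15, 0.13 and -0.27. The inhibitors Id1, Id2 and Id3 differed by -0.55, -0.30 and -0.28, with Id1 at 105 and 107 FPKM in the knockout and 80.4 and 64.5 in the clones. Id4, the remaining inhibitor, lay above, at 0.974 and 0.835 FPKM and at 2.41 and 1.38. Runx1t1, an ETO corepressor, was at 5.99 and 5.97 FPKM in the knockout and 10.4 and 10.6 in the clones, near its control level of 11.3 and 11.2. Cbfa2t2, another ETO corepressor, was at 13.2 and 13.1 FPKM in the knockout and 12.5 and 11.9 in the clones, a difference of -0.10.

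Mitosis genes were lower as a group. All 39 tested members were below the knockout in both clones, against 45.2% of all tested genes, with a median of -0.63 (clone 1 -0.76, clone 2 -0.51). The size was mostly under 2-fold: only Kif4, a chromosome X kinesin, was at least 2-fold lower in both clones, at 19.9 and 19.8 FPKM in the knockout and 6.77 and 8.29 in the clones. Foxm1, the transcription factor of the mitotic programme, was at 24.6 and 24.3 FPKM and at 11.3 and 11.8. Birc5 (survivin) was at 45.4 and 43.9 FPKM and at 23.5 in both clones, Mad2l1 of the spindle checkpoint at 28.7 and 29.1 and at 13.5 and 14.7, and the proliferation marker Mki67 at 16.5 and 16.3 and at 9.56 and 9.6. The control libraries averaged 30.6, 57.6, 37.5 and 18.5 FPKM for these 4 genes, at or above the knockout. Without chromosome X, 38 of 38 were below, with a median of -0.62. Among the 21 members with under 20% of read starts in use (a split chosen after seeing the data) all 21 were below (median -0.76), where all 7363 such genes had a median of 0.04. Of 49 DNA replication genes 40 were below and 0 above (median -0.35); Rrm2, a ribonucleotide reductase subunit, was at 39.6 and 41.4 FPKM and at 28.8 and 20.6, while Pcna was at 18.7 and 18.8 and at 16.6 and 14.6. The inhibitor Cdkn1a was at 2.61 and 2.69 FPKM in the knockout and 11.3 and 4.96 in the clones. Its list went the other way: of 26 CDK inhibitors and p53 targets 7 (26.9%) were above and 14 (53.8%) below. The median of that list was -0.12, with 0 members at least 2-fold higher and 1 lower. In bulk RNA, fewer cells in mitosis and less of these transcripts per cell cannot be told apart.

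Interferon-stimulated genes were also lower more often than higher, with clear differences between the clones. Of 35 members 23 (65.7%) were below the knockout in both clones and 3 (8.57%) above, against 45.2% and 36.4% of all tested genes. The list median was -0.20 in clone 1 and -0.50 in clone 2. Usp18, a brake on interferon signalling, was at 24.8 and 24.5 FPKM in the knockout and 13.4 and 6.57 in the clones, with a control mean of 5.26. Irf7, which drives interferon genes, was at 40.3 and 39.4 FPKM and at 28.6 and 18.9, with a control mean of 13.5. Of 28 chemokine and NF-kB genes 10 (35.7%) were above and 14 (50%) below, near the 36.4% and 45.2% of all tested genes. The chemokine Ccl20 was at 67.9 and 67.5 FPKM in the knockout and 26 and 21.4 in the clones. The alarmin Il33 was at 2.78 and 2.32 FPKM in the knockout and at 9.57 and 7.05 in the clones.

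In the glycolysis and hypoxia list 27 of 35 members (77.1%) were below and 5 (14.3%) above, against 45.2% and 36.4% of all tested genes. The list median was -0.23, and 4 members were at least 2-fold lower. Besides Slc16a3 these 4 were Car9 and Car12, carbonic anhydrases of the cell surface, and Egln3, an oxygen-sensing hydroxylase. Car9 was at 20.8 and 21.3 FPKM in the knockout, 7.24 and 3.64 in the clones and 3.8 and 4.25 in the control, and Egln3 at 2.43 and 2.62, 0.308 and 0.0478, and 0.211 and 0.21. Car12 had another order: its control level of 5.41 and 5.69 FPKM was above the knockout at 2.58 and 2.48, and the clones stood at 0.233 and 0.219. Ldha, the lactate dehydrogenase chain of glycolysis, was at 78.6 and 79.6 FPKM and at 64.7 and 63.7. Of 35 oxidative phosphorylation genes 30 were below and 1 above (median -0.24), but 33 of them had over 20% of read starts in use, where genes in general were also lower. Cholesterol synthesis genes had medians of -0.40 in clone 1 and 0.02 in clone 2, and their lowest members, Ebp and Nsdhl, lie on chromosome X.

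Markers of other cell types were mostly low. Of 15 endothelial markers 9, among them Cdh5, Kdr, Tie1 and Vwf, were under 0.1 FPKM in all 4 libraries, and the summed level of the list was 5.44 and 4.85 FPKM in the knockout and 13 and 14.8 in the clones, led by Erg. Of 19 macrophage and blood markers 12, among them Ptprc, Itgam and Tyrobp, were under 0.1 FPKM. The sums, led by Cd14, were 14.8 and 16 FPKM in the knockout and 24.5 and 17.7 in the clones. Of 21 epithelial markers 12, with Cdh1 and Epcam, were under 0.1 FPKM. The sums, led by Jup, were 18.1 and 17.3 FPKM in the knockout and 15.9 and 15.5 in the clones. Within the epithelial list Trp63, a transcription factor of basal epithelium, was at 0.242 and 0.314 FPKM in the knockout and 4.12 and 4.91 in the clones. Perp was at 4.78 and 4.86 FPKM and at 0.898 and 0.314. Of 19 muscle markers 9, with Myod1 and Myog, were under 0.1 FPKM, with sums of 28 and 30.4 and of 22.5 and 17.2. Tnnc1, Myl4 and Nkx2-5 led these muscle sums. Nkx2-5 was at 4.81 FPKM in both knockout libraries, 0.799 and 0.179 in the clones, and 5.66 and 5.03 in the control. The part of these summed levels in the results above was not tested.

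Differences from the knockout also followed chromosomes. On chromosome X 329 of 381 tested genes (86.4%) were below the knockout in both clones, and the median difference was -0.55, in clone 1 -0.54 and in clone 2 -0.55, a ratio of 0.685. The lower level ran along the whole chromosome, with medians from -0.45 to -0.63 in each of 5 blocks of 76 or 77 genes. In the control libraries the X median against knockout was -0.12, and in the TAFH-deleted clones 0.09 and 0.05. Set against the control libraries, the X medians of the full-length clones were -0.41 and -0.39. Chromosome X held 381 of the 12025 tested genes, 21 of the 98 at least 2-fold lower and 8 of the 285 at least 2-fold higher. Without it the 2-fold counts were 77 lower and 277 higher. Vsig1, Capn6, Arxes1 and Tmem47 were its highest genes, the last at 3.67 and 3.81 FPKM in the knockout and 15.1 and 14.1 in the clones.

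The 4 tested genes of chromosome Y (chosen after their values were seen) were above the knockout in both clones: Ddx3y was at 38.5 and 39.5 FPKM and at 56.4 and 54.6, Eif2s3y at 56.9 and 55.8 and at 69.5 and 71.8, Kdm5d at 15.3 and 14.8 and at 27.7 and 29.1, and Uty at 15.1 and 14.4 and at 24.9 and 27.5. On chromosome 1, 70.7% of 659 genes were above, with a median of 0.25 and 41 genes at least 2-fold higher, and the control libraries had a median of 0.19 against knockout. Fmod, Prelp, Col6a3, Fzd5 and Fzd7, all above the knockout in both clones, are chromosome 1 genes. Serpine2 and Ccl20 are among the 4 genes of this chromosome at least 2-fold lower, and Col3a1 (-0.02) also lies on it. Chromosome 15 had 67.2% of 488 genes below, with a median of -0.19, and chromosome 6 a median of -0.17, near 0 in its first 114 genes and -0.20 to -0.28 in each clone over the last 3 blocks. Medians of the other 16 autosomes lay between -0.1 and 0.07, and the clones never differed by more than 0.02 on an autosome or X.

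**Figure D4:**
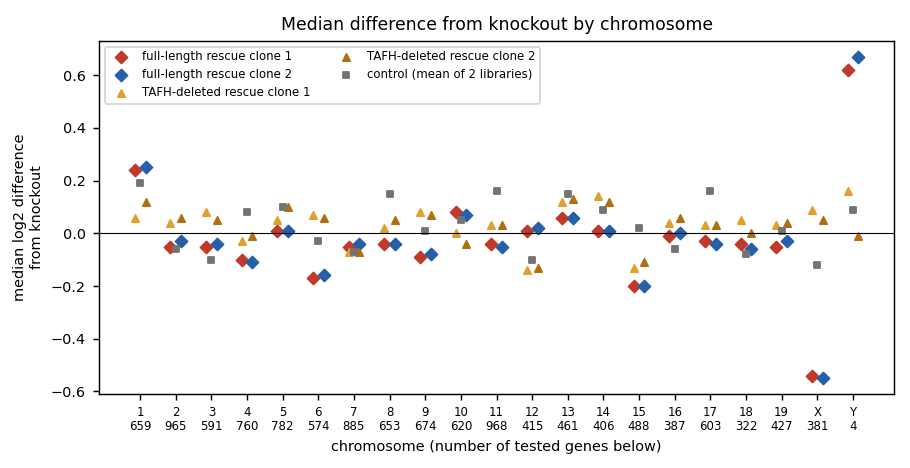
Median difference from the knockout mean in log2(FPKM + 1) (y axis) for the tested genes of each chromosome (x axis, number of genes below each name): diamonds are the full-length clones, triangles the TAFH-deleted clones and squares the control mean. Both diamonds are at -0.54 and -0.55 on chromosome X and at 0.24 and 0.25 on chromosome 1, while the triangles stay near 0 on X; chromosome Y rests on 4 genes.

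The TAFH-deleted rescue was compared with the full-length rescue for the same genes. Of all tested genes limma called 203 (1.69%) higher and 112 (0.931%) lower in full-length than in TAFH-deleted clones. Of the 14 highest genes 11 and of the 14 lowest 4 passed that test; these genes were chosen on the same full-length clones, so the counts are not independent of the choice. With either full-length clone left out, or without the filter on low values, limma called 0 genes between the forms and none of these 15 passed. In the TAFH-deleted clones Vsig1 was at 0.0615 and 0.0492 FPKM and Fgf5 was listed at 0 in both, close to the knockout in each case. Dcn was listed at 0 and 0.0387 FPKM there, Hgf at 0.192 and 0.0724, and Col8a2 at 0.391 and 0.254. Grem1 was intermediate, at 12.3 and 30.2 FPKM (limma adjusted p = 0.11 between rescue forms), with the clones far apart. Among the lowest genes Slc16a3 was at 2 and 0.875 FPKM without TAFH, so both rescue forms lay near the control (log2 difference between forms -0.11 ± 0.34, limma adjusted p = 0.856). Serpine2, at 0.0757 and 0.0998 FPKM, and Egln3, at 0.113 and 0, were also low in both forms. In the TAFH-deleted clones Lama4 was at 0.18 and 0.179 FPKM and Ctsk at 0.494 and 0.434, below the knockout. For these genes the forms differed by 4.51 ± 0.17 and 4.23 ± 0.16 (limma adjusted p = 0.0204 for both). Other genes also lay below the knockout in the TAFH-deleted clones. Among them were Dcn, Rspo3 at 2.33 and 0.534 FPKM, and Mmp2 at 6.35 and 6.95 FPKM.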

How the data were processed

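RNA of 8 libraries in 4 groups of 2 was analysed. Per the submitters' processing notes, CASAVA 1.8, TopHat, Cufflinks and Cuffdiff were used on mm9; other versions, masking and duplicate handling are not given in the sources used here. The authors deposited FPKM values for 30028 transcripts in each library, with their own p-values and q-values. The deposited table also lists each transcript's length in bases, and its loci are printed as mm9, counted from 1; a locus can hold several genes. Symbols (28875 accessions, 96.2%, matched to a RefSeq table; 47 symbols changed to dates restored) were used to sum FPKM per gene and chromosome, giving 23281 units.

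A gene was tested if 2 or more libraries reached 1 FPKM and its longest transcript reached 300 bases: 12209 passed the first filter and 184 failed the second, leaving 12025. At the edge, B130024G19Rik passed at 1.0026 FPKM and Nap1l2 failed at 0.9998. The test was limma-trend 3.58.1 (R 4.3.3) on log2(FPKM + 1), two-sided, all groups in 1 fit without covariates, with Benjamini-Hochberg adjustment at 0.05. Fold changes on that scale understate low genes. The 2-fold rule asked for a log2 difference of at least 1 in both clones: Cpxm1 (1.65 and 1.00) was in and Mmp13 (1.40 and just under 1) out; Rgag4 (-1.02 and -1.24) was in and Foxm1 (-1.05 and -0.99) out.

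Fragments were recovered from FPKM steps of 14671 single-transcript genes of at least 1000 bases, after 204.1 bases were taken from the length; 96.3 to 97.4% of low values were whole within 0.05 fragments. 1 fragment of a 2 kb transcript was worth 0.0322 to 0.039 FPKM.

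Named genes were the 14 largest differences each way among genes 2-fold apart in both clones with non-overlapping groups and a mean of at least 5 FPKM in the higher group (no predicted or small RNA genes), up to 4 members of each list by size, the 4 largest each way on chromosome X, and Taf4a and Taf4b. 1 of the 14 highest genes is not reported here. Other list members were named for their role after their values were seen. The genes compared and the lists were chosen with earlier results of these data known. Since separate cultures are not stated, the spread behind each p-value may be technical. Grouping genes by the share of read starts in use, and leaving out chromosome X, were added after seeing the data. The limma script was tested on simulated data. Alternatives were other pseudocounts, filters, scalings, sample sets and a replicate block.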

Additional observations from a re-analysis of the deposited data

Results flagged for a closer look

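The differences between full-length and TAFH-deleted rescue passed limma (adjusted p under 0.05) for 15 of the 28 genes with the largest rescue-over-knockout differences. On the log2(FPKM + 1) scale, full-length minus TAFH-deleted, Vsig1 differed by 4.81, Dcn by 3.96, Col8a2 by 3.75, Npnt by 3.62, Gpnmb by 3.32 and Hgf by 3.29. Fgf5 differed by 3.16, Fmod by 3.12, Capn6 by 2.82, Il20ra by 2.71 and Erg by 2.35. In the other direction Bhlhb9 differed by -4.21, Pir by -3.60, Cd302 by -2.21 and Slc43a3 by -1.93. The genes were picked on the same full-length clones that enter this test. None of the 15 passed with either full-length clone left out, or without the filter on low values.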

How the results depend on the processing

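The limma count of 0 higher and 0 lower genes held with a pseudocount of 0.1 or 5 FPKM, without the filter on low values, with quantile normalization and with median centring. It did not hold in the following fits. Keeping short transcripts gave 8 higher and 13 lower, counting each library gave 1263 and 1735, and fitting the knockout and full-length groups alone gave 1338 and 1831. Leaving out 1 library at a time gave 0 to 1316 higher and 0 to 1901 lower; the high values came without TAFH-deleted clone 1 (1310 and 1901) or clone 2 (1316 and 1885), whose pair then adds nothing to the spread. Without a full-length clone, the lone one is assumed to vary like the TAFH-deleted clones. Adding a replicate block to the fit with each library counted gave 967 higher and 1265 lower. Deviations of same-numbered knockout and full-length libraries correlated at 0.0571 across genes. Because the knockout libraries differed by less than sampling noise, this correlation cannot show whether the labels' numbers pair the samples. The number of genes at least 2-fold higher and lower was 502 and 188 with a pseudocount of 0.1 FPKM and 81 and 23 with 5 FPKM. Leaving out 1 library gave 284 to 397 higher and 97 to 169 lower, the 169 without full-length clone 1. Without chromosome X, an alternative chosen after seeing the data, the counts were 277 and 77. Of the named genes' values under the alternatives, 1230 kept direction and side of the threshold, 464 passed the threshold where they had not, and 1 changed sign: Taf4b, 0.02 without full-length clone 1 and -0.10 without clone 2. Quantile normalization moved the median of all genes from -0.04 to -0.01. List medians changed sign for integrins (-0.00 to 0.04), YAP and TEAD targets (-0.09 to 0.12), smooth muscle (-0.13 to 0.07), neural and glial (-0.02 to 0.12), fibroblast markers (-0.01 to 0.15), cholesterol synthesis (-0.40 to 0.02) and imprinted genes (-0.03 to 0.09). Between full-length and TAFH-deleted rescue, where 203 genes were called higher and 112 lower, with 11 of the 14 highest and 4 of the 14 lowest genes among them, the alternatives were added after seeing the data. A pseudocount of 0.1 FPKM gave 106 and 36 (7 of the 14 highest), quantile normalization 126 and 54, and short transcripts 82 and 24 (6 of the 14 highest and 2 of the 14 lowest). Without the low-value filter the counts were 0 and 0, and 0 of the 28 genes passed (smallest limma adjusted p = 0.0601, 4341 genes at an unadjusted p under 0.05). Counting each library gave 1848 and 2718 (9 of the 14 lowest), and with the replicate block 1631 and 2290 (8 of the 14 lowest). Leaving out 1 library gave 0 to 2868 higher and 0 to 3854 lower, with 0 to 14 of the 14 highest and 0 to 11 of the 14 lowest passing: the counts were 0 without full-length clone 1 (920 genes at an unadjusted p under 0.05) or clone 2 (1032), 2868 and 3854 without TAFH-deleted clone 1, and 1999 and 2807 without its clone 2.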
